A study of Homo sapiens with 9 samples.

Results

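High mobility group (HMG) proteins are abundant chromatin proteins other than histones, and 8 of their genes were read in a table of 26196 genes from HCA2, a line of human foreskin fibroblasts: HMGB1, HMGB2, HMGB3, HMGA1, HMGA2, HMGN1, HMGN2 and HMGN3. They were chosen by symbol, their 24 listed transcripts were summed per gene, and all 8 were among the 12763 genes with a mean of at least 0.5 FPKM (sequenced fragments relative to transcript length and library depth), the minimum for testing. HMGB proteins bend DNA with their HMG boxes, and HMGB1 outside the cell acts as an alarm signal through the receptors RAGE and TLR4. HMGA proteins bind AT-rich DNA with short AT hooks and have been found in the heterochromatin foci of senescent fibroblasts. HMGN proteins sit on nucleosomes and counter compaction by linker histone H1.

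PolyA RNA was sequenced in 9 libraries, 3 from each group. PD-L1-positive and PD-L1-negative senescent cells had been sorted for PD-L1, the CD274 product that restrains T cells. Both had received 100 nM of doxorubicin, which damages DNA, over 24 hours, followed by 100 nM of BI-2536, which blocks the mitotic kinase PLK1, until day 12. The normal libraries are labelled proliferative and PD-L1-positive, the same treatment text is attached to them, and no label states whether they were sorted; the group names come from the titles. All libraries are of 1 line, and nothing says that replicates were separate cultures, so p-values cover the spread among the libraries at hand, which may be technical. CD274 had 1.23, 1.32 and 1.38 FPKM in PD-L1-positive cells, 0.677, 0.708 and 0.909 FPKM in PD-L1-negative cells and 6.23, 3.48 and 2.89 FPKM in normal cells, so each sorted PD-L1-positive library was above each PD-L1-negative one and the normal libraries were above both. Each of the 10 fibroblast markers was measured above the minimum. Estimated depth was 11700000 to 17700000 fragments per library.

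The 3 HMGB genes fell in senescent cells, HMGB2 the most of all 8 members. HMGB2, a DNA-bending protein of dividing cells, had 16.8, 19.3 and 17.4 FPKM in PD-L1-positive cells, 14.8, 12.4 and 15.0 FPKM in PD-L1-negative cells, and 145, 96.9 and 43.4 FPKM in normal cells. HMGB1, the alarm protein and most abundant HMGB gene, had 46.0, 46.0 and 52.0 FPKM in PD-L1-positive cells, 49.0, 44.0 and 51.0 FPKM in PD-L1-negative cells, and 195, 181 and 112 FPKM in normal cells. HMGB3, the least abundant member, had 5.59, 5.96 and 5.48 FPKM in PD-L1-positive cells, 5.46, 5.16 and 5.79 FPKM in PD-L1-negative cells, and 23.3, 15.3 and 8.38 FPKM in normal cells. For each of the 3 genes every senescent library lay below every normal library, and the normal libraries were ordered replicate 1, 2, 3 from high to low.

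With the 2 sorted groups averaged and set against normal cells, HMGB2 changed by −2.39 on the log2(FPKM + 0.5) scale, the scale of every fitted difference here (SE 0.30, limma, Benjamini-Hochberg adjusted p = 0.00023), and its mean FPKM was 16.7% of normal. HMGB1 changed by −1.71 (SE 0.16, limma adjusted p = 5.4e-05), to 29.5% of the normal mean. HMGB3 changed by −1.30 (SE 0.25, limma adjusted p = 0.0019), to 35.5% of the normal mean. Over the 12763 genes tested, 0.34% had a lower log2 difference than HMGB2, 1.66% a lower one than HMGB1 and 3.53% a lower one than HMGB3. In bulk RNA, fewer cells that express a gene and less RNA per cell cannot be told apart.

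**Figure D1:**
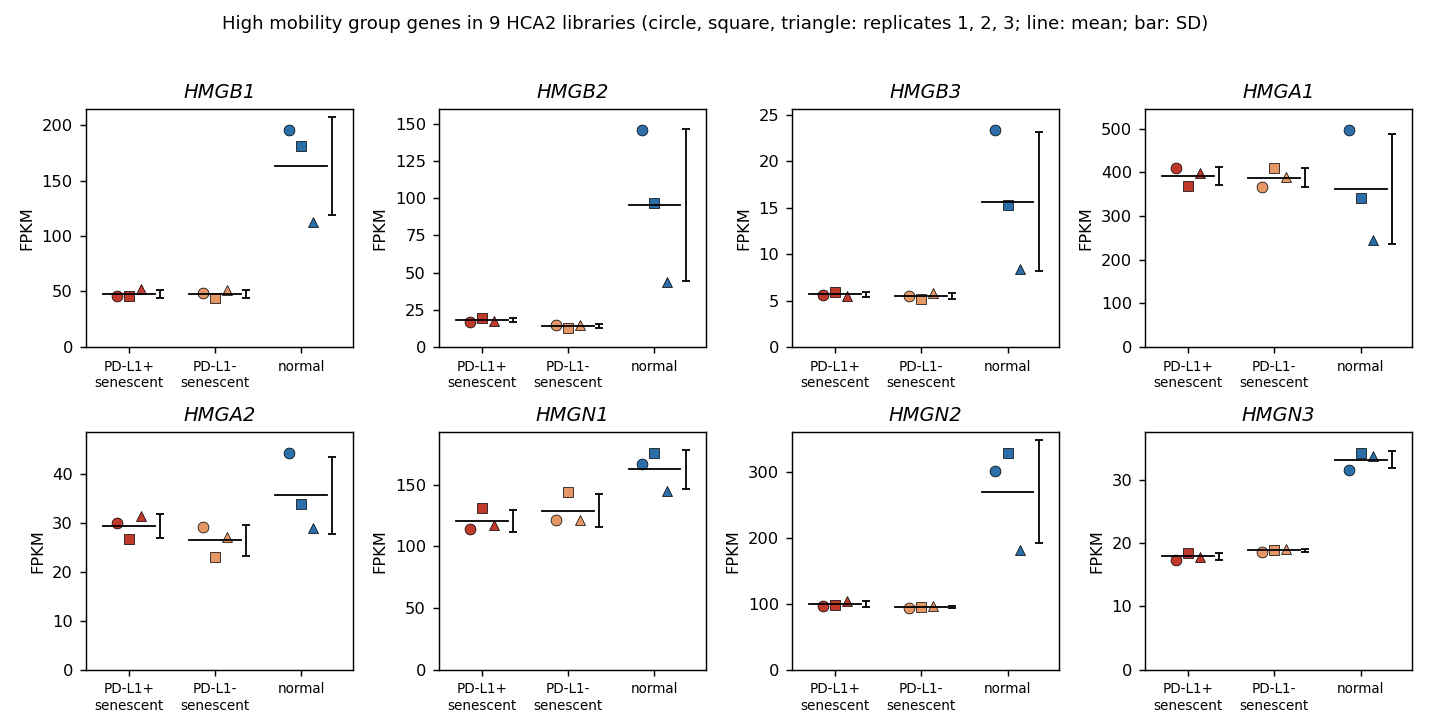
FPKM of the 8 HMG genes in each library (vertical axes from 0), with PD-L1-positive senescent, PD-L1-negative senescent and normal libraries from left to right; lines mark means and bars SD over 3 libraries. The HMGB and HMGN genes lie lower in every senescent library than in every normal library, whereas HMGA1 and HMGA2 overlap between groups.

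Across the family, 6 of the 8 members fell and 0 rose in senescent cells at an adjusted p under 0.05 (limma, Benjamini-Hochberg over all genes tested). By the same test 29.9% of all genes tested fell and 23.9% rose. The median log2 difference was −1.07 over the 8 members and −0.04 over all genes tested. Each senescent group against the same 3 normal libraries gave 6 of 8 members lower and 0 higher as well, while 26.3% of all genes were lower and 21.1% higher in PD-L1-positive cells, and 26.6% were lower and 21% higher in PD-L1-negative cells. The libraries did not overlap for 6 of 8 members, all lower in senescent cells, beside 27.3% of all genes tested that were lower without overlap.

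Promoter sequences were available for 6 members, taken from RefSeq on GRCh38.p14 in windows of 300 bases (250 upstream and 50 downstream of a start site). The upstream stretches of the start nearest to the measured transcript are shown for HMGB1, HMGB3 and HMGN2, which fell, and for HMGA1, which did not pass the test. Stretches are cut where an annotated exon of the gene begins. Capitals mark CCAAT (the box bound by NF-Y) or its reverse complement, and TTTGAA (a cell cycle element) or its reverse complement, with all other bases in lower case.
HMGB1, chr13:30465966-30466186, minus strand: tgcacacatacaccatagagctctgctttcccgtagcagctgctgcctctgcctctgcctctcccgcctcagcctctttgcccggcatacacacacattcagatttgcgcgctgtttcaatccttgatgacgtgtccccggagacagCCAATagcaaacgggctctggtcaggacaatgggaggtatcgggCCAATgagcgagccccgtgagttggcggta
HMGB3, chrX:150983085-150983285, plus strand: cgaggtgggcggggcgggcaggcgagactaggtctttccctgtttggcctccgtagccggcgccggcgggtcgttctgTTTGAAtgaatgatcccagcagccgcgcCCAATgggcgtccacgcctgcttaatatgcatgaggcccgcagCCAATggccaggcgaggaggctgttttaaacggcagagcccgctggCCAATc
HMGN2, chr1:26472190-26472439, plus strand: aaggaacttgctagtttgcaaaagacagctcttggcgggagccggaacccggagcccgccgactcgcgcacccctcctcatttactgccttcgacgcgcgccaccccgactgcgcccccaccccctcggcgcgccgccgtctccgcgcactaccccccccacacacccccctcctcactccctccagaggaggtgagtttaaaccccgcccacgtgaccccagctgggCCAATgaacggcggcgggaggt
HMGA1, chr6:34236623-34236872, plus strand: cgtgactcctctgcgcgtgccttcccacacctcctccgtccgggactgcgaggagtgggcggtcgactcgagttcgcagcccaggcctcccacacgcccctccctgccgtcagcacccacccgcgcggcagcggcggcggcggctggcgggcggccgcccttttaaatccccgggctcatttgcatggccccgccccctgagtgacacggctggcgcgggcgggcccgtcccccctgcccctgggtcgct

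The HMGB1 stretch held 2 CCAAT boxes, the HMGB3 stretch 3 CCAAT boxes and 1 TTTGAA element, the HMGN2 stretch 1 CCAAT box, and the HMGA1 stretch none of these letters. HMGN1 and HMGN3, which also fell, are not shown. The HMGN1 stretch, of 90 bases after the cut, held neither element, though its whole window held 2 CCAAT boxes, and the HMGN3 stretch held 1 CCAAT box. The whole window of that HMGA1 start does hold a CCAAT box, at position 39 counted from the start site, and a second HMGA1 window holds one at position −146, so that 6 of the 6 genes had CCAAT in at least 1 window. Over the 10 windows of the 6 genes, 8 held CCAAT and 2 held TTTGAA on either strand, while 34.61% and 15.16% of all 35116 windows of the same length did. None of the 10 held any of 4 E2F words (TTTCCCGC, TTTCGCGC, TTTGCCGC and TTTGGCGC, either strand), which 3.315% of all windows held. At so low a share 10 windows would mostly hold none, so this absence says nothing about the members. These matches describe letters in a window and not binding. HMGB2 and HMGA2 are named here without a promoter sequence.

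HMGB2 and HMGB3 were also listed in a table of motifs, many of them of E2F factors, which drive genes of DNA replication. In the authors' deposited table of enriched motifs and ChIP-seq tracks, made with iRegulon, HMGB2 was listed as a target in 76 of 112 motif rows and 15 of 16 track rows. In the authors' deposited table HMGB3 was listed in 30 of 112 motif rows and 7 of 16 track rows. Of the 6 track rows that name an E2F factor in the authors' deposited table, 6 listed HMGB2 and 4 listed HMGB3. Of the 46 motif rows that name an E2F factor in the authors' deposited table, 31 listed HMGB2 and 8 listed HMGB3. How many rows list other input genes was not counted here, so whether these counts are unusual cannot be told. The other 6 members appeared in none of the rows of the authors' deposited table. Its rows list targets from its input genes, and its header does not state how these were chosen. Whether the 6 were among the input is not shown here, so their absence says nothing about motifs or tracks at these genes.

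HMGA1 and HMGA2, the AT-hook proteins, did not pass the test in any comparison with normal cells. HMGA1, the most abundant member in each group, had 409.7, 369 and 397 FPKM in PD-L1-positive cells, 366, 409 and 388 FPKM in PD-L1-negative cells, and 495, 342 and 246 FPKM in normal cells. HMGA2, better known from embryonic and tumour cells, had 29.9, 26.8 and 31.4 FPKM in PD-L1-positive cells, 29.2, 23.0 and 27.1 FPKM in PD-L1-negative cells, and 44.2, 33.8 and 28.9 FPKM in normal cells. The senescent libraries of HMGA1 lay inside the range of the normal libraries, and those of HMGA2 reached into its lower end.

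In senescent minus normal, HMGA1 differed by 0.17 (SE 0.18, 95% interval −0.24 to 0.57, limma adjusted p = 0.46) and HMGA2 by −0.33 (SE 0.13, 95% interval −0.63 to −0.03, limma adjusted p = 0.061). Both values rest on single normal libraries. Without normal replicate 1 HMGA1 was 0.43 higher (limma adjusted p = 0.0246), and without normal replicate 3 its difference was −0.08. HMGA2 changed by −0.47 without normal replicate 3 (limma adjusted p = 0.0117), and by −0.45 with every library scaled to an equal FPKM sum (limma adjusted p = 0.0303).

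**Figure D2:**
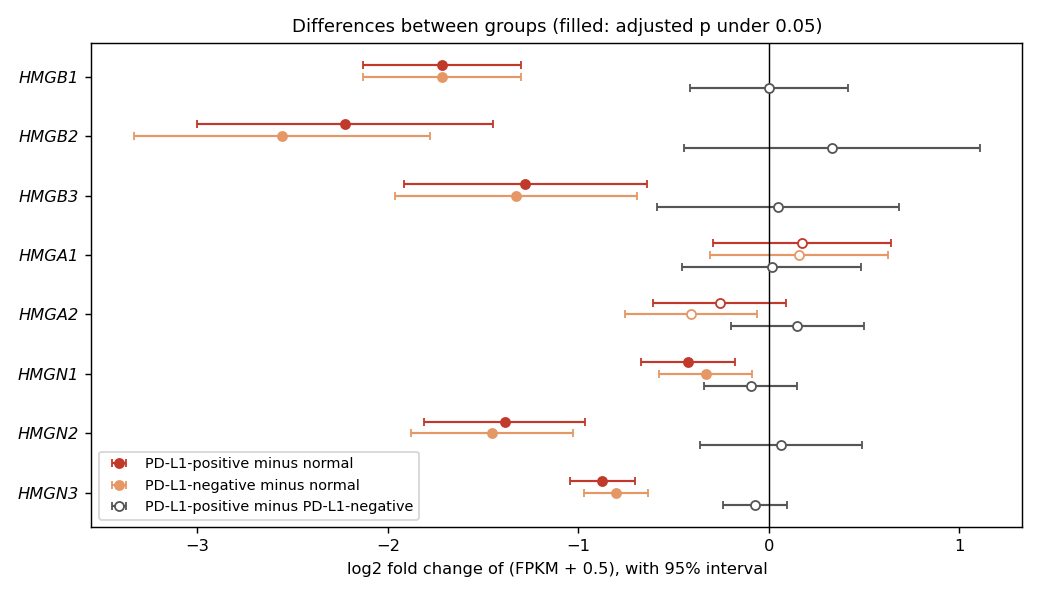
Log2 difference of (FPKM + 0.5) with its 95% interval for each member (horizontal axis) in PD-L1-positive minus normal, PD-L1-negative minus normal and PD-L1-positive minus PD-L1-negative cells; filled points have an adjusted p under 0.05. HMGB2 lies lowest in both comparisons with normal cells, at −2.22 and −2.56, and all 8 intervals between the sorted groups cross 0.

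HMGA2 RNA is a textbook target of let-7, a microRNA family whose seed pairs with the tail of the message. The let-7a sequence is shown with its seed in capitals (RefSeq, GRCh38.p14, chr9:94175962-94175983, plus strand), followed by the 4 matches to the seed after the stop codon of the HMGA2 transcript NM_003483 in GENCODE 29 (GRCh38, plus strand), with the paired letters in capitals. Each site is in the 3′ UTR.
let-7a: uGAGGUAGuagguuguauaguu
HMGA2 site 1, chr12:65963298-65963320: gccaacgttcgatttCTACCTCa
HMGA2 site 2, chr12:65964533-65964555: ccccactactcaataCTACCTCt
HMGA2 site 3, chr12:65964945-65964967: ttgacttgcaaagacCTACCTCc
HMGA2 site 4, chr12:65965798-65965820: aatcaaaacacactaCTACCTCt

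The transcript with these 4 sites held most of the HMGA2 signal. NM_003483, of 4473 bases and coding for 109 residues, had 27.9, 23.8 and 28.9 FPKM in PD-L1-positive cells, 26.1, 20.9 and 25.8 FPKM in PD-L1-negative cells, and 37.6, 27.8 and 25.1 FPKM in normal cells. NM_001300918, of 611 bases with 118 residues, 106 bases after the stop codon and 0 sites, had 0.816, 1.54 and 1.53 FPKM in PD-L1-positive cells, 1.37, 0.883 and 0.597 FPKM in PD-L1-negative cells, and 4.88, 4.36 and 3.14 FPKM in normal cells. All senescent libraries of the short transcript were below all normal libraries, while those of the long one overlapped with them. NM_001300919 and NM_003484 also held 0 sites after the stop codon, and their libraries overlapped between groups. NM_001300919 had 0.117 to 0.824 FPKM in senescent and 0.0959 to 0.419 FPKM in normal libraries. NM_003484 had 0.579 to 1.60 FPKM in senescent and 0.577 to 1.37 FPKM in normal libraries.

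The short transcript was 4.45% of HMGA2 FPKM in PD-L1-positive cells, 3.58% in PD-L1-negative cells and 11.6% in normal cells, and the long one was 91.4% in PD-L1-positive, 91.7% in PD-L1-negative and 84.7% in normal cells. The short transcript's values rest on about 5 to 16 fragments per senescent library and about 27 to 53 per normal library. No test was made on transcripts, whose split depends on how the authors' program assigned shared reads. Each of the 6 HMGA1 transcripts held 1 seed match after its stop codon, and no transcript of the other 6 members held any. The let-7 microRNAs themselves were not measured here.

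Among HMGA1 transcripts, NM_145899, coding for 107 residues, was 67.5% of HMGA1 FPKM in PD-L1-positive cells, 67.7% in PD-L1-negative cells and 66.2% in normal cells. Among the 4 transcripts that code for 96 residues, NM_002131 was 17.8% to 20.0% in PD-L1-positive, 16.1% to 19.4% in PD-L1-negative and 11.7% to 16.3% in normal libraries. NM_145903 lay the other way, at 3.55% to 7.57% in PD-L1-positive, 5.67% to 6.35% in PD-L1-negative and 8.49% to 10.1% in normal libraries. NM_002131 shares its matched annotation with NM_145902, another 96-residue transcript, so the split between these 2 is uncertain. Summed, the 96-residue form was 27.3% ± 1.78 in PD-L1-positive, 25.8% ± 3.02 in PD-L1-negative and 26.8% ± 1.1 in normal cells (SD, n = 3 each), with overlapping libraries.

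**Figure D3:**
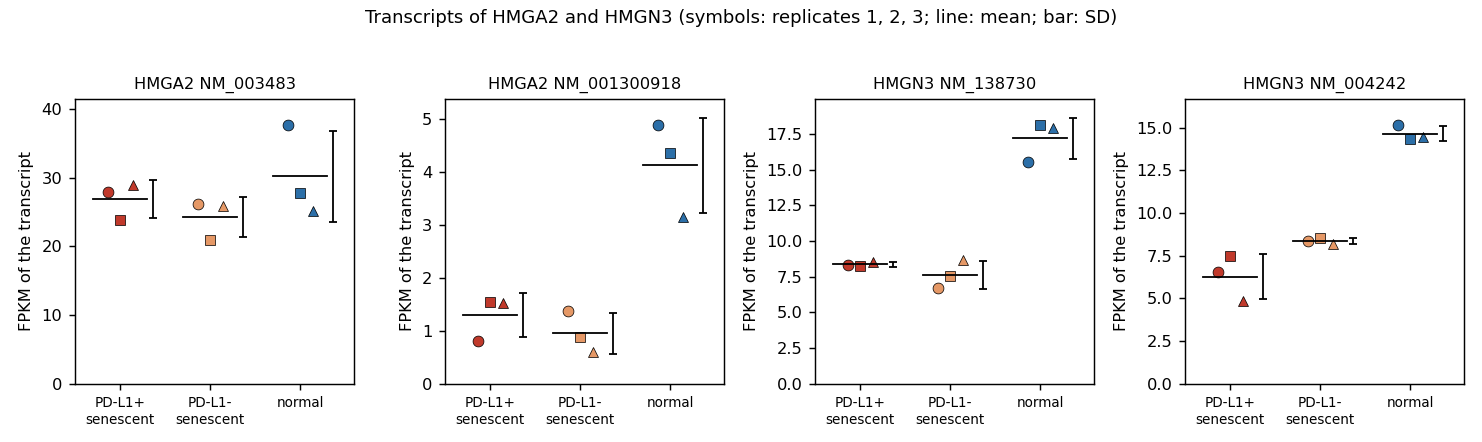
FPKM of 2 HMGA2 and 2 HMGN3 transcripts in each library (vertical axes from 0), with PD-L1-positive senescent, PD-L1-negative senescent and normal libraries from left to right; lines mark means and bars SD over 3 libraries. The senescent libraries of the short HMGA2 transcript NM_001300918 lie between 0.597 and 1.54 FPKM, below the normal libraries at 3.14 to 4.88 FPKM.

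The 3 HMGN genes fell in senescent cells by very different amounts. HMGN2, a small nucleosome-binding protein, had 97.0, 98.3 and 104 FPKM in PD-L1-positive cells, 94.2, 95.2 and 96.7 FPKM in PD-L1-negative cells, and 302, 329 and 181 FPKM in normal cells. HMGN3, a family member first described as a partner of the thyroid hormone receptor, had 17.4, 18.5 and 17.8 FPKM in PD-L1-positive cells, 18.6, 18.9 and 19.0 FPKM in PD-L1-negative cells, and 31.6, 34.1 and 33.7 FPKM in normal cells. HMGN1, which takes part in chromatin opening and DNA repair, had 114, 131 and 117 FPKM in PD-L1-positive cells, 121, 144 and 122 FPKM in PD-L1-negative cells, and 167, 176 and 145 FPKM in normal cells. HMGN2 and HMGN3 were far apart between senescent and normal libraries, whereas the highest senescent library of HMGN1, at 144 FPKM, was just under the lowest normal one, at 145 FPKM.

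In senescent minus normal, HMGN2 changed by −1.42 (SE 0.16, limma adjusted p = 0.00015), to 36.1% of the normal mean. HMGN3 changed by −0.84 (SE 0.07, limma adjusted p = 2.7e-05), to 55.3% of the normal mean, with the smallest adjusted p of the 8 members. HMGN1 changed by −0.38 (SE 0.09, limma adjusted p = 0.0081), to 76.9% of the normal mean. The call of HMGN1 ended when libraries were weighted by their quality, at a limma adjusted p of 0.0603, and in each sorted group against normal cells with the same weights, at 0.0573 for PD-L1-positive and 0.0829 for PD-L1-negative cells. In PD-L1-negative minus normal it also ended without normal replicate 1, normal replicate 2, PD-L1-negative replicate 1 or PD-L1-negative replicate 3, with limma adjusted p from 0.0779 to 0.112.

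HMGN3 is read from 4 transcripts, and HMGN1 and HMGN2 from 1 each. NM_138730, coding for 77 residues, had 8.31, 8.23 and 8.51 FPKM in PD-L1-positive cells, 6.70, 7.57 and 8.66 FPKM in PD-L1-negative cells, and 15.5, 18.1 and 17.9 FPKM in normal cells. NM_004242, coding for 99 residues, had 6.54, 7.46 and 4.83 FPKM in PD-L1-positive cells, 8.38, 8.56 and 8.20 FPKM in PD-L1-negative cells, and 15.1, 14.3 and 14.5 FPKM in normal cells. Both main forms were lower in every senescent library than in every normal library. NM_001201362 went the other way at a low level, with 1.44 to 3.26 FPKM over the senescent libraries and 0.745 to 1.01 FPKM over the normal ones, but it shares its matched annotation with NM_004242, so the split between these forms is uncertain.

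The order of the members by level differed between groups. By mean FPKM, a unit per length, the order in senescent cells was HMGA1, HMGN1, HMGN2, HMGB1, HMGA2, HMGN3, HMGB2 and HMGB3, with means of 389.7, 125, 97.6, 48.0, 27.9, 18.3, 16.0 and 5.57 FPKM. Neighbours in this order overlapped over the 6 senescent libraries for HMGN3 and HMGB2 alone. In normal cells the order was HMGA1, HMGN2, HMGB1, HMGN1, HMGB2, HMGA2, HMGN3 and HMGB3, with means of 361, 270.4, 163, 162, 95.3, 35.6, 33.2 and 15.7 FPKM. All neighbours there overlapped except HMGN3 and HMGB3.

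A factor applied to a whole library cancels in a ratio between 2 of its genes, apart from the added 0.5 FPKM, and 5 ratios were compared between the 6 senescent and 3 normal libraries with an exact two-sided permutation test. HMGN2 relative to HMGN1 was −0.35 ± 0.15 on the log2 scale in senescent cells (SD, n = 6) and 0.69 ± 0.32 in normal cells (SD, n = 3), a difference of −1.04 (exact permutation p = 0.0238, 0.0397 adjusted over the 5 ratios). HMGN3 relative to HMGN1 differed by −0.46 and HMGA2 relative to HMGA1 by −0.50, each with the same exact p and adjusted p. In all 3 ratios every senescent library lay below every normal library, and 0.0238 is the smallest p that the 84 splits allow. HMGB2 relative to HMGB1 differed by −0.67 (exact permutation p = 0.0476, adjusted 0.0595) and HMGB3 relative to HMGB1 by 0.41 (exact permutation p = 0.0714, adjusted 0.0714), and neither passed after adjustment.

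**Figure D4:**
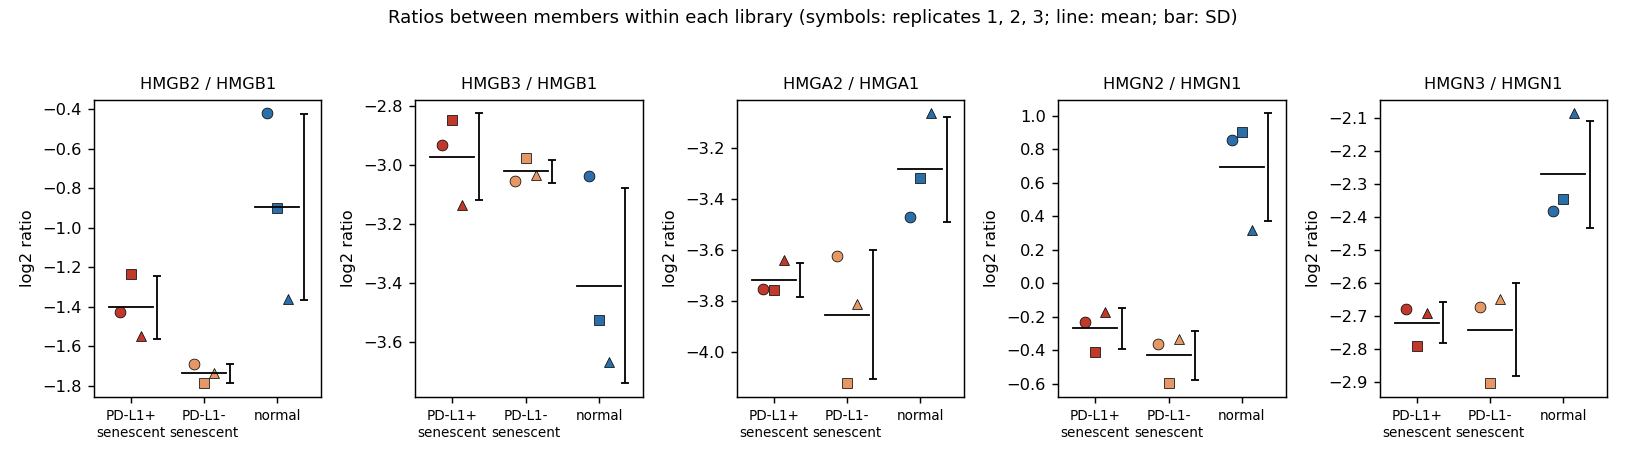
Log2 ratio of (FPKM + 0.5) between 2 members within each library (vertical axes differ and do not start at 0), with PD-L1-positive senescent, PD-L1-negative senescent and normal libraries from left to right; lines mark means and bars SD over 3 libraries. HMGN2 / HMGN1 lies between −0.60 and −0.17 in senescent libraries and between 0.32 and 0.90 in normal libraries.

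No member differed between the sorted groups by the test across all genes, and neither did any of the 12763 genes tested, which is 0% called (limma, Benjamini-Hochberg), with 1.74% at an unadjusted p under 0.05. PD-L1-positive minus PD-L1-negative differences ranged from −0.09 for HMGN1 to 0.33 for HMGB2. The 95% interval was −0.44 to 1.11 for HMGB2, −0.41 to 0.41 for HMGB1, −0.36 to 0.49 for HMGN2 and −0.24 to 0.10 for HMGN3. These intervals use the spread over all 9 libraries, the wide normal group included. With only the 6 sorted libraries fitted, the interval of HMGB2 was 0.10 to 0.57 (unadjusted p = 0.0111, limma adjusted p = 0.997) and those of the other 7 members crossed 0.

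Without overlap between libraries, HMGB2 was higher in PD-L1-positive cells, at 16.8 to 19.3 FPKM against 12.4 to 15.0 FPKM in PD-L1-negative cells. HMGN2 was higher too, at 97.0 to 104 FPKM in PD-L1-positive against 94.2 to 96.7 FPKM in PD-L1-negative cells, and HMGN3 was lower, at 17.4 to 18.5 FPKM against 18.6 to 19.0 FPKM. That is 2 of 8 members higher and 1 of 8 lower, where 4.62% of all genes were higher and 4.8% lower without overlap. HMGB2 relative to HMGB1 averaged −1.40 ± 0.16 in PD-L1-positive and −1.74 ± 0.05 in PD-L1-negative cells on the log2 scale (SD, n = 3 each), with an exact permutation p of 0.1, the smallest that 3 against 3 allows.

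All 17 proliferation markers fell with the HMGB and HMGN genes in senescent minus normal (limma). By the same test 29.9% of all genes tested fell. Between the sorted groups 15 of the 17 had the higher mean in PD-L1-positive cells. Their median log2 difference was 0.34 there, against 0.0065 over all genes tested. Of the markers 0 were called (limma), as were 0 of all genes tested. MKI67, the antigen Ki-67 of dividing cells, had 4.65, 4.49 and 6.09 FPKM in PD-L1-positive cells, 3.97, 1.64 and 4.02 FPKM in PD-L1-negative cells, and 61.3, 33.4 and 12.7 FPKM in normal cells. TOP2A, a topoisomerase of dividing cells, had 23.7, 22.8 and 26.8 FPKM in PD-L1-positive cells, 17.5, 10.2 and 16.4 FPKM in PD-L1-negative cells, and 137, 70.6 and 34.6 FPKM in normal cells. Both were highest in normal replicate 1 and lowest among normal libraries in replicate 3, and both lay higher in each PD-L1-positive than in each PD-L1-negative library. Over all genes tested, 4.62% were higher and 4.8% lower without overlap in PD-L1-positive cells. Of the 17 markers, 8 lay higher without overlap in PD-L1-positive cells, 8 overlapped, and MCM6, a subunit of the replicative helicase, lay lower, at 10.1 to 10.8 FPKM in PD-L1-positive and 11.1 to 12.0 FPKM in PD-L1-negative cells. In senescent minus normal their median was −2.04, and their summed level was 260 to 289 FPKM in PD-L1-positive, 196 to 255 FPKM in PD-L1-negative and 469 to 1555 FPKM in normal libraries. Their part in the differences of the HMG genes was not tested.

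The members differed in how far they spread over the normal libraries. The highest over the lowest normal library was 3.35-fold for HMGB2, 2.79-fold for HMGB3, 2.02-fold for HMGA1, 1.81-fold for HMGN2, 1.74-fold for HMGB1 and 1.53-fold for HMGA2. The same ratio was 1.21-fold for HMGN1 and 1.08-fold for HMGN3, against 4.82-fold for MKI67. HMGN3 thus had nearly the same level in the 3 normal libraries, whose MKI67 differed widely. HMGB1, HMGB2, HMGB3, HMGA1 and HMGA2 all fell from normal replicate 1 to 2 to 3, as MKI67 did. HMGN1 and HMGN2 were highest in normal replicate 2 and lowest in replicate 3. What lies behind this order was not tested.

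**Figure D5:**
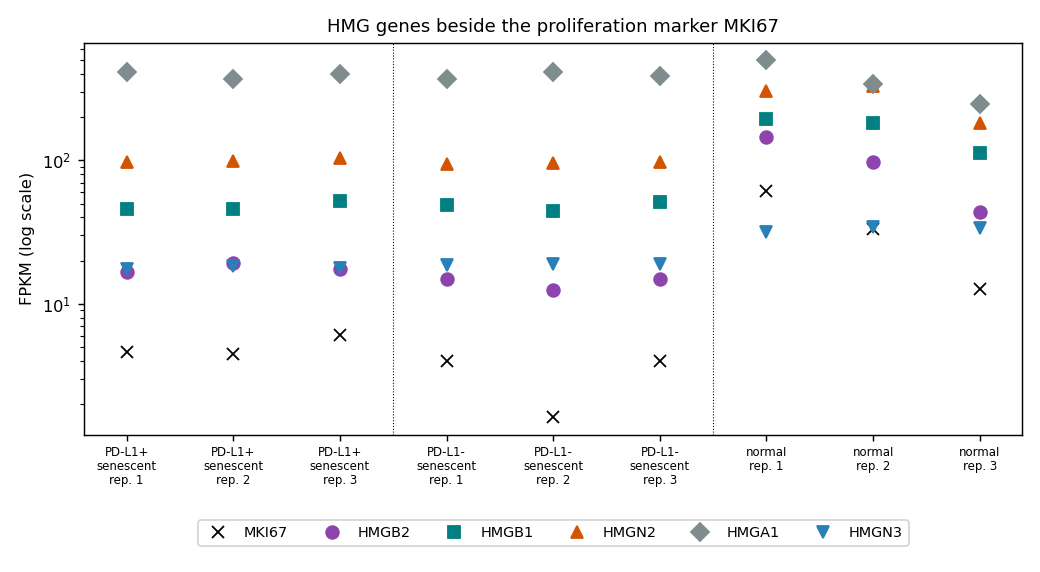
FPKM (log scale) of 5 HMG genes and of the proliferation marker MKI67 in each of the 9 libraries, with PD-L1-positive senescent, PD-L1-negative senescent and normal libraries from left to right. Among normal libraries MKI67 spans 12.7 to 61.3 FPKM and HMGB2 43.4 to 145 FPKM, while HMGN3 stays between 31.6 and 34.1 FPKM.

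Other genes with the most similar profiles were found by the root mean square (RMS) difference of log2(FPKM + 0.5), centred on each gene's mean, over the 9 libraries. HMGB1 lay nearest to SSRP1, the HMG-box subunit of the histone chaperone FACT, at an RMS difference of 0.056, followed by PLP2 and PTMA. HMGB2 lay nearest to UHRF1, which guides maintenance DNA methylation, at 0.083, followed by CDC45 and RRM2, a replication helicase factor and a ribonucleotide reductase subunit. HMGB3 lay nearest to TICRR, a replication initiation factor, followed by MCM4 and E2F2. TICRR and E2F2 were low, with means of 0.654 and 0.172 FPKM in senescent and 2.49 and 1.35 FPKM in normal cells. The added 0.5 FPKM shrinks their differences on this scale.
The nearest genes to HMGN2 were ALYREF, WDR4 and TUBB, those to HMGN1 were PSMA2, UBE2V2 and MRPL21, and those to HMGN3 were TEAD2, MRPS15 and TRPC4. HMGA1 lay nearest to TEF, ICMT and ZNF43, and HMGA2 to USP31, ZNF318 and METTL10. Within the family, HMGB1 and HMGN2 were the closest pair at 0.16, and HMGA1 and HMGB2 the most distant at 1.23.

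Among 25 other tested genes with an HMG box or of the HMGN family, 14 fell and 4 rose in senescent cells, with a median of −0.24. The shares over all genes tested were 29.9% lower and 23.9% higher. TOX, a nuclear HMG-box factor, changed by −2.36 (SE 0.27, limma adjusted p = 0.00013), WHSC1, a histone methyltransferase, by −1.72, and SSRP1 by −1.72, while SOX4, a transcription factor, rose by 1.05. The remaining HMGN genes were split, HMGN4 at −0.25 and HMGN5 at 0.46 (limma adjusted p = 0.015 and 0.041).

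Linker histones, whose compaction HMGN proteins counter, did not move as 1 group. Of 4 tested, HIST1H1C rose by 2.0 (limma adjusted p = 7.3e-05), H1FX and H1F0 fell by 1.12 and 0.52 on the log2 scale (limma adjusted p = 0.0032 and 0.022), and HILS1 differed by −0.52 (limma adjusted p = 0.057). HIST1H1C had 53.7, 65.6 and 42.9 FPKM in PD-L1-positive cells, 57.4, 78.0 and 46.7 FPKM in PD-L1-negative cells, and 10.5, 14.2 and 17.0 FPKM in normal cells. Messages of replication-dependent histones mostly lack a polyA tail, and this RNA was selected for polyA.

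Of 12 genes listed around the senescence-associated heterochromatin foci, not all of them partners of HMGA, 10 fell and 0 rose, with a median of −0.62. By the same test 29.9% of all genes tested fell and 23.9% rose. HIRA and H2AFY of this list differed by −0.14 and −0.33 and did not pass (limma adjusted p = 0.168 and 0.063). H2AFZ, a histone variant, fell by 1.84 on the log2 scale, ASF1B, a histone chaperone, by 1.53, and the heterochromatin proteins CBX5 and CBX3 by 0.86 and 0.73. Of 7 receptors and partners of extracellular HMGB1, 4 fell and 1 rose, beside the same 29.9% and 23.9% of all genes tested. CXCL12, the chemokine that binds HMGB1, changed by −2.14 and MYD88, an adaptor of Toll-like receptors, by −0.60. LY96, the TLR4 co-receptor MD-2, rose by 0.89. AGER, which encodes RAGE, changed by −1.10 at a low level, with means of 1.12 FPKM in senescent and 2.96 FPKM in normal cells. TLR4 had 2.20 to 2.87 FPKM in senescent and 3.27 to 3.64 FPKM in normal libraries.

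Of 10 genes around LIN28, let-7 and HMGA2, 5 fell and 1 rose, with a median of −0.34, where 29.9% of all genes tested fell and 23.9% rose. The microRNA processing enzymes DROSHA and DICER1 changed by −0.64 and −0.39, the exonuclease DIS3L2 by −0.67, the effector AGO2 by −0.82 and the RNA-binding protein IGF2BP2 by −0.35. ZCCHC6, which adds uridines to let-7 precursors, rose by 0.29. DGCR8, IGF2BP1, IGF2BP3 and ZCCHC11 lay at −0.33, −0.28, 0.02 and 0.05 and did not pass the test, and LIN28A and LIN28B were under the minimum level.

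Of 8 genes fixed as markers of the senescent state or of the sort, 5 rose and 2 fell in senescent minus normal. The shares over all genes tested were 23.9% higher and 29.9% lower. The cell cycle inhibitors CDKN1A and CDKN2B rose by 1.50 and 0.70, the secreted factors IL6 and GDF15 by 1.46 and 2.35, and GLB1, which encodes the lysosomal beta-galactosidase, by 0.52. LMNB1, the lamin B1 gene, and CD274 changed by −3.08 and −1.57, and the inhibitor gene CDKN2A differed by 0.29 (limma adjusted p = 0.13).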

How the data were processed

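The authors deposited FPKM values of 52741 RefSeq transcripts; build hg19, DESeq2 1.22.2, HTSeq 0.11.2 and STAR 2.5.2a are named without roles in the submitters' processing notes. Normalized enrichment scores of motifs and tracks came from iRegulon as deposited, per the file headers. The program that made the FPKM is not given in the sources used here. Transcripts were summed per symbol and tested with limma 3.58.1 (R 4.3.3) on log2(FPKM + 0.5), a scale that understates changes of low genes, using a trend of variance with level and Benjamini-Hochberg adjustment over 12763 genes with a mean of at least 0.5 FPKM. All 9 libraries entered 1 fit. The fit and the exact permutation test (scipy 1.17.1, which doubles the smaller tail) were tested on simulated data.

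Depth estimates used the step size of low values in 7210 genes with 1 transcript, using GENCODE 29 lengths on GRCh38. Those lengths are not of the files' build, so depths and fragments are approximate. Reads may be shared with near-identical pseudogenes, of which GENCODE 29 names 48 for HMGB1, 36 for HMGN2, 31 for HMGN1 and 29 for HMGB3.

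Members and lists were chosen with earlier results of these data known. Genes named beside the members were the 3 nearest profiles per member and, per list, up to 4 with the largest change among those past the test, and all genes of the linker histone, LIN28 and senescence lists. HMGN4 and HMGN5 were picked after their values were seen. Alternatives were other pseudocounts, filters, scalings, weights, thresholds, a replicate block, the most abundant transcript and leaving out each library.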

Additional observations from a re-analysis of the deposited data

How the results depend on the processing

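The 6 called members kept their direction in every alternative run. In the comparisons with normal cells 5 to 7 were called: HMGN1 lost its call with array weights in all 3, at an adjusted p under 0.01 in each sorted group, and in PD-L1-negative cells with only the compared libraries fitted (limma adjusted p = 0.0611), and HMGA2 was added with equal sums in senescent and PD-L1-negative cells. Leaving out 1 library gave 6 to 7 members called in senescent minus normal, 6 to 7 in PD-L1-positive minus normal, 5 to 7 in PD-L1-negative minus normal and 0 between the sorted groups. Of 520 recomputed log2 differences from normal, 497 stayed on their side of the threshold, 10 lost and 10 gained a call and 3 turned round.

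Without 1 library, HMGA1 ranged from −0.0797 to 0.426 in senescent, from −0.0718 to 0.434 in PD-L1-positive and from −0.0876 to 0.418 in PD-L1-negative minus normal, turning round without normal replicate 3. Between the sorted groups, 8 of 176 values turned round, none called: HMGB1 gave −0.00545 with median-of-ratios scaling, −0.00879 with equal sums and −0.0658 with array weights, and ranged from −0.0597 to 0.0452 without 1 library. HMGA1 ranged from −0.0255 to 0.0590 without 1 library, and HMGN3 gave 0.127 by its most abundant transcript. The array weights came with a warning that their fit had not fully converged.

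At an adjusted p under 0.01, 3734 genes differed in PD-L1-positive minus normal and 3800 in the comparison of PD-L1-negative cells, against 6058 and 6066 at 0.05. Between the sorted groups the count of 0 genes became 1 with a pseudocount of 0.1, 2 without a filter, 2 with array weights, and 0 to 3 without 1 library. Scaled to equal sums, 2299 genes were higher and 4582 lower in senescent minus normal, against 3044 and 3821 as deposited, and the median of all genes moved to −0.15 from −0.04.

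Of the ratios, a pseudocount of 1 brought HMGB2 to HMGB1 (−0.65) and HMGB3 to HMGB1 (0.47) past the threshold, each with an exact permutation p adjusted to 0.0476. Without 1 library the differences ranged from −0.59 to −0.39 for HMGA2 to HMGA1, −1.23 to −0.94 for HMGN2 to HMGN1, −0.51 to −0.37 for HMGN3 to HMGN1, −0.91 to −0.44 for HMGB2 to HMGB1 and 0.28 to 0.60 for HMGB3 to HMGB1. The 3 ratios that had passed kept an adjusted p under 0.05 in 1 of these 9 runs and lost it in 8 (exact permutation, adjusted p 0.0446 to 0.119). Leaving out a library also lowers the number of splits, which raises the smallest p. With the replicate block the 3 ratios that had passed kept −0.50, −1.04 and −0.46, at a p of 0.25, the smallest that 3 pairs allow in an exact sign-flip test.

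By the rule used, a correlation over 0.1 in every pair, the replicate numbers did not pair the libraries of all groups. The rule takes in the normal libraries, so it cannot decide whether the sorted groups alone are paired. Deviations of same-numbered libraries correlated at 0.094, 0.223 and 0.457 between the sorted groups and between −0.011 and 0.132 with normal ones, and PD-L1-positive replicate 1 correlated best with PD-L1-negative replicate 2, at 0.141. With the number as a block, 7 members were called in senescent and 7 in PD-L1-negative minus normal, HMGA2 being added at −0.33 and −0.41 (limma adjusted p = 0.0381 and 0.0342).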

Other observations

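HMGB2 is a known part of the SET complex, an assembly with nucleases and histone chaperones. Of 8 tested genes of this complex, 7 fell and 0 rose in senescent minus normal, with a median of −1.04, where 29.9% of all genes tested fell. ANP32E, a chaperone that removes the histone variant H2A.Z, changed by −1.92 (SE 0.19, limma adjusted p = 7.2e-05), ANP32A by −1.26, ANP32B by −1.18 and NME1 by −1.13. Of 14 genes around the export, modification and redox state of HMGB1, 4 fell and 0 rose, a share near the 29.9% of all genes tested that fell, with a median of −0.17. PARP1, which modifies HMGB1 after DNA damage, changed by −0.94, XPO1, the nuclear exporter, by −0.83, CASP1 by −0.68 and the pore protein GSDMD by −0.51. Between the sorted groups 0 genes of either list were called (limma), as were 0 of all 12763 genes tested.

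Markers of other cells were mostly under the minimum level, CD68 and KRT10 being the abundant ones. Summed levels were 12.2 to 15.0 FPKM in PD-L1-positive, 13.7 to 16.2 FPKM in PD-L1-negative and 17.2 to 18.9 FPKM in normal libraries over 7 keratinocyte markers, of which 1 passed the minimum, KRT10. Over 7 leukocyte markers they were 56.8 to 67.7 FPKM in PD-L1-positive, 54.1 to 63.2 FPKM in PD-L1-negative and 32.5 to 34.9 FPKM in normal libraries, with CD68 and CD14 the 2 that passed the minimum. CD68, a lysosomal protein of macrophages that fibroblasts also make, had 66.6, 64.9 and 55.1 FPKM in PD-L1-positive, 59.9, 61.8 and 52.7 FPKM in PD-L1-negative and 34.3, 33.5 and 31.5 FPKM in normal cells, and rose by 0.85 (limma adjusted p = 8.4e-05). Over 5 melanocyte markers the sums were 1.13 to 2.36 FPKM in PD-L1-positive, 1.18 to 1.63 FPKM in PD-L1-negative and 0.393 to 0.508 FPKM in normal libraries, and PMEL, the 1 that passed the minimum, rose by 1.02 (limma adjusted p = 0.0014). Over 5 endothelial markers they were 0.555 to 0.764 FPKM in PD-L1-positive, 0.470 to 0.723 FPKM in PD-L1-negative and 0.661 to 1.70 FPKM in normal libraries, with TEK the 1 that passed, at −0.58 (limma adjusted p = 0.044). Their part in the differences of the HMG genes was not tested.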
